A study of Mus musculus with 2 samples.

Results

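Ada, Nt5e, Slc28a2, Pnp, Xdh and Enpp3 encode enzymes and a transporter of purine breakdown in the small intestinal epithelium, and in 5 of these 6 genes the count scaled with TMM factors was at least 4 times as high in DSS-treated mouse intestinal organoids (mIOs) as in the control. The 6 genes were selected on the count ratio of the same 2 libraries that are described here, by name and without a threshold, so their direction is a description and supports nothing further. All 6 were found among the 19294 genes analysed. One control library and one library of mIOs treated with dextran sulfate sodium (DSS), a sulfated glucan used to injure the gut lining, were sequenced as stranded mRNA libraries, and the labels give day 4 for both. The mIOs came from jejunal crypts of Lgr5-EGFP-IRES-creERT2 mice, which carry EGFP and an inducible Cre at the Lgr5 locus, and this genotype is shared by the control and the DSS library. Both were cultured in Matrigel with EGF, Noggin and R-spondin, and the DSS concentration used for sequencing was not given in the sources used here. With 1 library per condition there was no replicate spread and no test, and every interval below is a 95% interval that covers counting error only.

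Purine breakdown in the gut begins at the cell surface. Enpp3, an ectonucleotide pyrophosphatase, cleaves extracellular nucleotides such as ATP to AMP, and Nt5e, also called CD73, removes the phosphate of AMP to give adenosine. Slc28a2, the concentrative nucleoside transporter CNT2, carries purine nucleosides into the cell with sodium. Inside, Ada (adenosine deaminase) turns adenosine into inosine, Pnp (purine nucleoside phosphorylase) splits inosine and guanosine into base and ribose phosphate, and Xdh (xanthine dehydrogenase) oxidizes hypoxanthine and xanthine to uric acid. In the mouse small intestine, Ada, Nt5e and Slc28a2 are known as genes of enterocytes at the tip of the villus. The libraries hold bulk RNA, so position along the villus was not measured. In bulk RNA, a different number of cells of a type and a different amount of RNA per cell cannot be told apart.

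The total count was 65493032 for control mIOs and 59746968 for DSS mIOs. Counts were scaled with TMM factors and are given as CPM (counts in a library scaled to 1000000 counts), and the log2 ratio is that of the scaled counts, DSS over control. The labels name intestinal stem cells as the cell type, while markers of stem cells, enterocytes, goblet cells, Paneth cells and enteroendocrine cells were all counted in the control library.

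Among the surface enzymes, Enpp3 (NCBI gene 209558) had 241 control counts and 5380 DSS counts. This was 3.37 CPM against 98.4 CPM, a log2 ratio of 4.87 (interval 4.68 to 5.06), or 29.2-fold. Nt5e (NCBI gene 23959), the next enzyme of the route, had 191 control counts and 764 DSS counts, the fewest of the 6 genes in both. Its level was 2.67 CPM against 14 CPM, and its log2 ratio was 2.39 (interval 2.16 to 2.62).

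The transporter Slc28a2 (NCBI gene 269346) had 620 control counts and 2087 DSS counts. This corresponded to 8.66 and 38.2 CPM and to a log2 ratio of 2.14 (interval 2.01 to 2.27). Without TMM factors, on total counts alone, its log2 ratio was 1.88, below the line of 2.

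Of the 3 intracellular enzymes, Ada (NCBI gene 11486) differed most. It had 629 control counts and 18984 DSS counts, or 8.79 CPM against 347 CPM. The log2 ratio of 5.30 (interval 5.19 to 5.42) was 39.5-fold and the highest of the 6. Xdh (NCBI gene 22436), which ends the route, had 2811 and 14822 counts, or 39.3 and 271 CPM, and a log2 ratio of 2.79 (interval 2.73 to 2.85). Pnp (NCBI gene 18950), the enzyme between them, was the most abundant of the 6 in the control library and differed least. Its 6859 control counts and 10591 DSS counts gave 95.8 and 194 CPM and a log2 ratio of 1.02 (interval 0.97 to 1.06). The interval of Pnp included the line of 1, and with total counts its log2 ratio was 0.76.

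**Figure D1:**
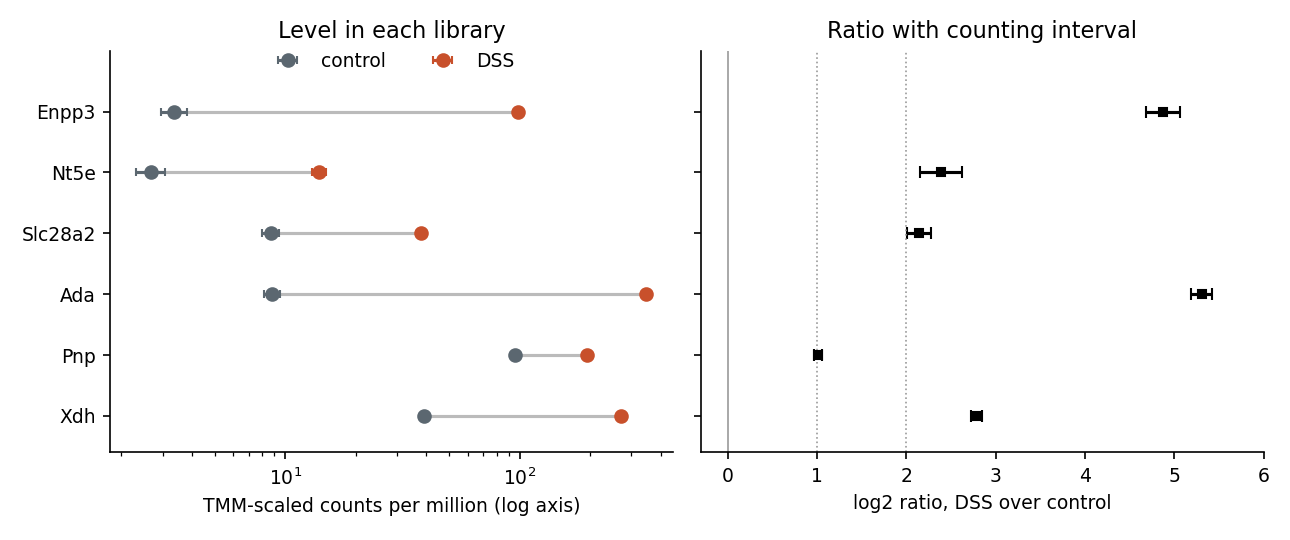
TMM-scaled CPM of the 6 purine genes in the control and DSS libraries (left, log axis) and their log2 ratio, DSS over control (right), in the order of the breakdown route. Bars are 95% counting intervals, 1 library stands behind each point, and dotted lines mark log2 ratios of 1 and 2. The DSS point lies to the right of the control point for each gene, from 1.02 for Pnp to 5.30 for Ada.

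Of the 6 genes, all were at a log2 ratio of 1 or more and 5 at 2 or more, and none was below 0. Among the 17235 genes with 10 or more counts in either library, 19.3% were at 1 or more and 7.87% at 2 or more, while 20.2% were at -1 or less and 6.54% at -2 or less. As the 6 genes were chosen with this ratio known, nothing is read from their counts beside these shares. Ranked from the highest log2 ratio, Ada was at position 40 of 17235 and Enpp3 at 65, followed by Xdh at 670, Nt5e at 943, Slc28a2 at 1199 and Pnp at 3284. The median of the 6 genes was 2.59, and that of all 17235 genes was -0.06. With total counts, every log2 ratio was lower by 0.26, 5 of the 6 genes reached 1 and 4 reached 2. Under that scaling 41.7% of the genes past 2 or -2 were higher in the DSS library, against 54.6% with TMM factors.

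**Figure D2:**
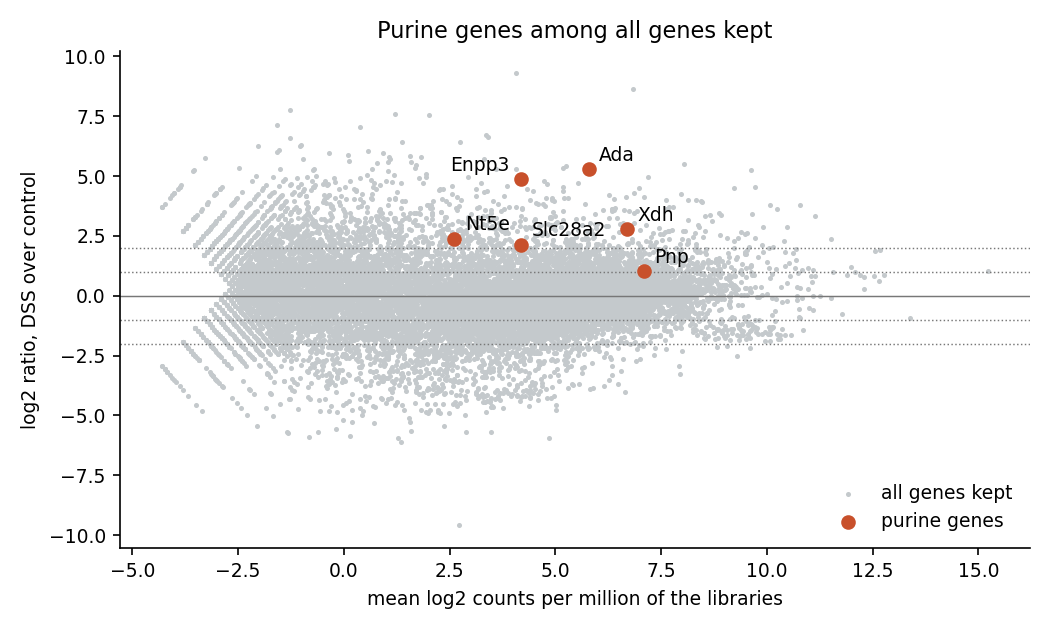
The log2 ratio, DSS over control, of the 17235 genes with 10 or more counts in either library (grey) against their mean log2 CPM, with the 6 purine genes in orange. Dotted lines mark log2 ratios of 1, 2, -1 and -2. Ada and Enpp3 lie near the upper edge of the cloud and Pnp lies at the line of 1.

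Summed over the 6 genes, 11351 control counts and 52628 DSS counts fell on the route. This was 173 CPM without TMM factors in the control, with an exact binomial interval from 170 to 177, and 881 in the DSS library, from 873 to 888. After TMM scaling the sum had a log2 ratio of 2.60 (interval 2.57 to 2.63). The make-up of this sum differed between the libraries. Pnp gave 60.4% of the 6 genes' counts in the control and 20.1% under DSS, whereas Ada gave 5.54% in the control and 36.1% under DSS. The share of Enpp3 was 2.12% in the control and 10.2% under DSS. Xdh gave 24.8% and 28.2%, and Nt5e 1.68% and 1.45%.

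Levels of different genes were compared per kilobase of the longest protein-coding transcript. In the control library, the order from the highest was Pnp at 32.6 CPM per kb, Xdh at 8.54, Ada at 5.21, Slc28a2 at 2.21, Enpp3 at 0.792 and Nt5e at 0.668. The counting intervals of Enpp3, from 0.695 to 0.898, and of Nt5e, from 0.577 to 0.770, overlapped, so these neighbours were not separated at this length, and the intervals of all other neighbours did not overlap. In the DSS library, Ada came first at 206 CPM per kb, followed by Pnp at 65.8, Xdh at 58.9, Enpp3 at 23.1, Slc28a2 at 9.76 and Nt5e at 3.50, without overlap between neighbours. Both orders depend on the length used for Enpp3, whose median transcript is short. With median lengths its level in the control was 3.46 CPM per kb, above the 2.25 of Slc28a2 and the 0.668 of Nt5e, and in the DSS library it was 101 CPM per kb, above the 85.1 of Xdh. Ada was first in the DSS library and Pnp first in the control with both lengths.

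Reads of paralogs limit 2 of the 6 values. Of the windows of 100 bases in the longest Pnp transcript, 22.1% also occur in transcripts of another gene, Pnp2 among them, and the longest run shared with Pnp2 was 292 bases. For Slc28a2, 20.6% of such windows occur in its paralog Slc28a2b, listed here as Gm14085, with a run of 295 bases. No window of 100 bases of Ada, Nt5e, Xdh or Enpp3 occurred in another gene, and of the windows of 50 bases 0.904% of those of Enpp3 did. Pnp2 had 1298 control counts and 3580 DSS counts, a log2 ratio of 1.85 (interval 1.76 to 1.94), and Pnp and Pnp2 together were at 1.19. Gm14085 had 69 and 194 counts and a log2 ratio of 1.88 (interval 1.48 to 2.30), and its sum with Slc28a2 was at 2.12. How reads shared by such pairs were counted was not given in the sources used here.

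The RefSeq promoter windows of GRCm38.p6 were described for the 5 genes with an entry. They run from 250 bases before to 50 bases after the annotated start. Xdh was not matched. The 250 bases upstream are printed 5′ to 3′ in the direction of the gene for Ada and Enpp3, the genes with the highest ratios, and for Slc28a2, the window poorest in CpG, and capitals mark each CG dinucleotide. They lie at chr2:163750240-163750489 on the minus strand for Ada, at chr10:24836196-24836445 on the minus strand for Enpp3 and at chr2:122426185-122426434 on the plus strand for Slc28a2. The same stretch lies at chr9:88327359-88327608 on the plus strand for Nt5e and at chr14:50944053-50944302 on the plus strand for Pnp.
Ada: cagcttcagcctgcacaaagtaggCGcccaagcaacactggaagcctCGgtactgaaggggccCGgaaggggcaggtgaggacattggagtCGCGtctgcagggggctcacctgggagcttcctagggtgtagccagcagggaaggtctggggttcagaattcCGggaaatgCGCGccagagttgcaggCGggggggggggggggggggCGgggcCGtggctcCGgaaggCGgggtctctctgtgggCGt
Enpp3: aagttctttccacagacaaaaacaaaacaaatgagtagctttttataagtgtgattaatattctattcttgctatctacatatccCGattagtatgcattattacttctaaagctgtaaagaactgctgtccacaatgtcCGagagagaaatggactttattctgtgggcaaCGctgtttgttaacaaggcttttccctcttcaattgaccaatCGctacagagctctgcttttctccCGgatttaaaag
Slc28a2: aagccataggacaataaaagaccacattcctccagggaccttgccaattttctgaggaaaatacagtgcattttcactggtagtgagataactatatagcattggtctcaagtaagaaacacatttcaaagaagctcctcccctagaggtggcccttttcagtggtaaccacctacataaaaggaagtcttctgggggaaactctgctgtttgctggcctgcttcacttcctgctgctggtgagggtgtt

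The upstream stretch of Ada held 14 CG dinucleotides, that of Enpp3 held 5 and that of Slc28a2 held 0. Over the whole window of 300 bases, the count was 20 for Ada, 23 for Nt5e, 12 for Pnp, 5 for Enpp3 and 1 for Slc28a2. The median of 32851 RefSeq windows was 7, with quartiles at 3 and 20. The GC content ran from 40.7% for Enpp3 to 71.0% for Nt5e around a median of 52.7%. In CG count and GC content Ada was near Nt5e, and Enpp3 was below them. A link between these features and the log2 ratio was not tested, as only 5 windows of genes chosen by that ratio were at hand. On both strands, the HNF4 motif CAAAGTCCA and the CDX2 motif TTTATGG were found in 0 of the 5 windows, against 0.475% and 2.75% of all windows. The GATA motif AGATAA was found in Slc28a2 alone and is held by 11.2% of all windows. The TATA box TATAAA was found in Enpp3 alone, on the opposite strand and 209 bases before the start, and is held by 13.6% of all windows. A window with a match held a single one, so no matches overlapped, and a match or its absence describes these letters only.

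The enzymes and channels around the 6 genes were grouped by role. Outside the 6 genes, 80 genes of nucleotide breakdown, transport, catabolism, salvage, synthesis and the molybdenum cofactor had 10 or more counts in either library. Of these, 21 (26.3%) were at a log2 ratio of 1 or more and 23 (28.8%) at -1 or less, and their median was -0.07. The groups lay on both sides of 0, and the pooled median was above 0 with upper quartile factors.

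The group of extracellular nucleotide breakdown also holds enzymes inside the cell, such as Entpd5, so its numbers are not those of surface enzymes alone. In this group, 9 of 16 genes were at 1 or more, against 1 at -1 or less, with a median of 1.42. Without Enpp3 and Nt5e the median was 0.89 over 14 genes. Alpi, the intestinal alkaline phosphatase of the brush border, which also removes phosphate from AMP, had 6473 control counts and 75636 DSS counts, for a log2 ratio of 3.94. It thus had more counts than Nt5e in both libraries, at 38.7 against 0.668 CPM per kb in the control and 592 against 3.50 in the DSS library. Entpd8, an ectonucleotidase that hydrolyses ATP and ADP, was at 2.08, and Entpd5, an endoplasmic reticulum enzyme that hydrolyses UDP and GDP, at 1.58. The lowest were Entpd6 at -1.07, Enpp4 at -0.65 and Entpd4 at -0.47. Enpp1, the close relative of Enpp3, had 1352 and 875 counts and a log2 ratio of -0.24.

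The transporters lay on both sides of 0. At 1 or more stood 6 of 13 genes and at -1 or less 4, and the median was -0.20. Slc28a1, the concentrative transporter for pyrimidine nucleosides, had 76 control counts and 619 DSS counts and was at 3.41 (interval 3.07 to 3.78). The equilibrative transporters were on the other side. Slc29a1, or ENT1, had 4776 control counts and 898 DSS counts, a log2 ratio of -2.02, and Slc29a2, or ENT2, had 631 and 51 counts, a log2 ratio of -3.24. Slc28a3, a concentrative transporter for both kinds of nucleoside, had 77 and 26 counts and was at -1.18. Of the transporters known to carry urate, the product of Xdh, Abcg2 was at 1.54, Slc2a9 at 1.42 and Abcc4 at -0.32, so they lay on both sides of 0. Abcc5, an exporter of cyclic nucleotides, was at 1.90.

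Among 19 genes of purine catabolism, 7 were at 1 or more, against 2 at -1 or less, with a median of 0.56, or 0.25 over the 16 genes other than Ada, Pnp and Xdh, which passed just below 0 with total counts. Gda, guanine deaminase, which feeds xanthine to Xdh, had 679 control counts and 8895 DSS counts. Its log2 ratio was 4.10 (interval 3.99 to 4.21). Nt5c1a, a cytosolic nucleotidase that acts on AMP, was at 4.53 from 9 and 159 counts. At the other end, Nt5c3b, a cytosolic nucleotidase, was at -2.32, and Urad, which acts on a product of urate oxidation, was at -2.19 with 143 and 24 counts. Nudt1, which hydrolyses oxidized purine nucleotides, was at the line of -1.

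Genes of purine salvage, which rebuild nucleotides from bases and nucleosides, had a median of -0.10. Of 15 genes, 1 was at 1 or more and 4 at -1 or less. Adk, adenosine kinase, which competes with Ada for adenosine, had 4490 control counts and 1967 DSS counts, for a log2 ratio of -0.80. Hprt, which returns hypoxanthine and guanine to nucleotides, was at 0.15 with TMM factors and below 0 with total counts, and Aprt, which salvages adenine, at 0.69. Ahcy, which splits S-adenosylhomocysteine and releases adenosine, was lowest at -1.94, followed by Mtap, which yields adenine from methylthioadenosine, at -1.88 and the deoxycytidine kinase Dck at -1.40. Among genes with 50 or more counts in either library, the highest were Gmpr, GMP reductase, at 1.30 and Ak3, a mitochondrial adenylate kinase, at 0.90.

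De novo purine synthesis was on the other side of 0 from the 6 genes. Of its 15 genes, 12 were at -1 or less, 7 were at -2 or less and none was at 1 or more, and the median was -1.67. Paics, which catalyses middle steps of the pathway, had 6766 control counts and 567 DSS counts, a log2 ratio of -3.19 (interval -3.31 to -3.06). Atic, which makes IMP in the last steps, was at -2.96, and Ppat, the enzyme of the committed step, at -2.81. Impdh2, which turns IMP towards guanine nucleotides, was at -2.63 from 22648 and 2799 counts. Adss, which turns IMP towards adenine nucleotides, was highest at 0.47, followed by Prpsap1 at 0.40 and Prps1 at -0.11. Adssl1, the isozyme of Adss, was at -2.79 from 651 and 72 counts. Markers of proliferating cells had a lower median log2 ratio, at -3.72 over 14 genes, with 13 of them at -2 or less. The part of proliferating cells in the values of the synthesis genes was not tested.

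Xdh carries a molybdenum cofactor. Of 8 genes of this cofactor and of molybdenum enzymes, 4 were at 1 or more, against none at -1 or less, with a median of 0.67. Mocos, the sulfurase that activates the cofactor of xanthine dehydrogenase, had 535 and 1080 counts and a log2 ratio of 1.40. The synthesis genes Mocs3 at -0.30, Gphn at 0.00 and Mocs2 at 0.06 were near 0, and their sign depended on the scaling except for Mocs3. Marc1, a molybdenum enzyme of mitochondria, was at 4.43 from 4 and 66 counts (interval 3.01 to 6.35), and Suox, sulfite oxidase, was at 1.28.

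Receptors for adenosine and nucleotides, with the channels that release ATP, had a median of 0.31 over 14 genes, with 4 of them at 1 or more, against 3 at -1 or less. Of the former, Adora2b (4 and 35 counts), P2rx1 (6 and 22) and P2ry4 (9 and 38) rested on few counts. Of the latter, so did P2rx7 (31 and 7). Adora2a, an adenosine receptor that raises cyclic AMP, was at 2.39 from 52 and 208 counts, while the abundant Adora1 was at 0.28 from 4734 and 4387 counts. P2ry6, a receptor for UDP, was at -2.79. Of the others with 50 or more counts in either library, P2ry1, a receptor for ADP, was at 0.63 and P2rx4, a channel gated by ATP, at 0.52, while P2rx3, of the same family, was at -0.50. Gja1, a gap junction protein, was lowest at -4.70, from 68 and 2 counts.

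The pyrimidine counterparts of these steps had a median of 0.07 over 14 genes, which was -0.18 with total counts. The breakdown enzymes Tymp (thymidine phosphorylase), Upb1 (beta-ureidopropionase) and Cda (cytidine deaminase) were highest, at 3.78, 2.62 and 1.74. Cad, which starts pyrimidine synthesis, Tk1, a thymidine kinase of dividing cells, and Dhodh, a further synthesis enzyme, were lowest, at -2.86, -2.59 and -2.18.

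**Figure D3:**
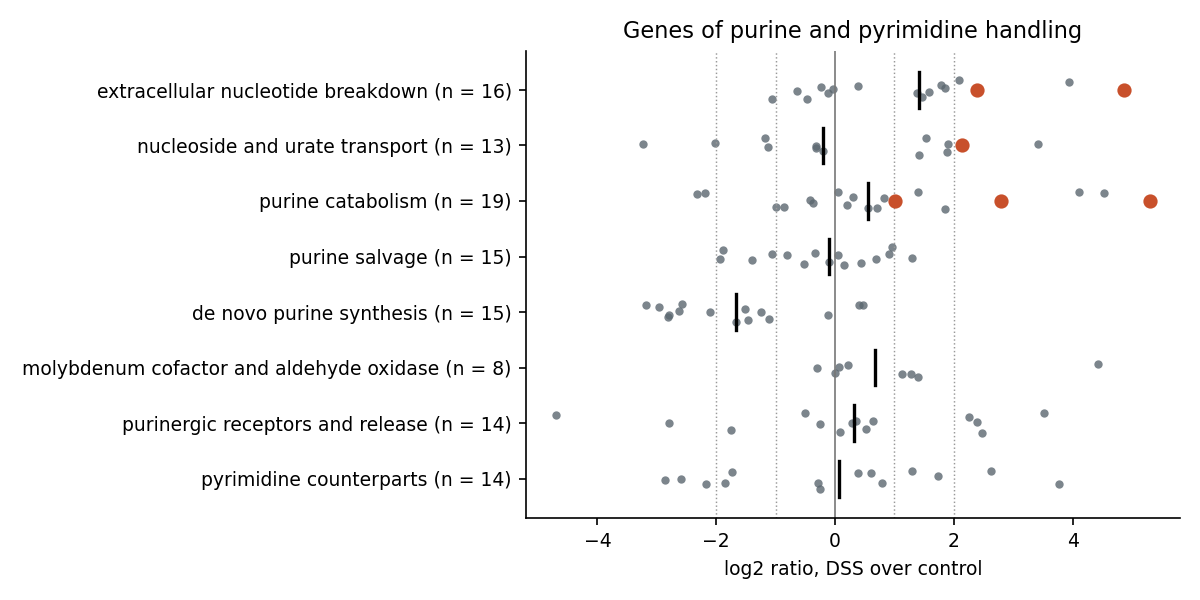
The log2 ratio, DSS over control, of each gene with 10 or more counts in either library, by role in purine and pyrimidine handling. Orange points are the 6 purine genes, grey points the other genes, black bars the median of each group and n its number of genes. The median of de novo purine synthesis lies at -1.67. That of extracellular nucleotide breakdown, a group that also holds enzymes inside the cell, lies at 1.42.

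A ratio between the counts of 2 genes within a library does not depend on how the libraries are scaled. Ada had 0.140 counts for each count of Adk in the control and 9.65 under DSS, a shift of 6.11 on the log2 scale (interval 5.97 to 6.24). Xdh had 0.312 counts for each count of Hprt in the control and 1.94 under DSS, a shift of 2.64 (interval 2.56 to 2.71). For uptake, Slc28a2 had 0.130 counts for each count of Slc29a1 in the control and 2.32 under DSS, a shift of 4.16 (interval 4.00 to 4.33). Each of these 3 count ratios was below 1 in the control and above 1 in the DSS library, as counts that take no account of transcript length. Per kilobase of the longest transcript, Xdh stayed below Hprt in the DSS library, at 58.9 against 109 CPM per kb. There Ada was above Adk, at 206 against 19.8, and Slc28a2 above Slc29a1, at 9.76 against 7.41.

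The steps of the route also differed among each other. Ada shifted against Pnp by 4.29 (interval 4.17 to 4.41) and against Xdh by 2.52. At the surface, Enpp3 shifted against Nt5e by 2.48 (interval 2.19 to 2.78) and against Enpp1 by 5.11. The shift of Ada against Enpp3 was the smallest among those of Ada computed here, at 0.44 (interval 0.22 to 0.65). Nt5e shifted against Alpi by -1.55, so that Nt5e was a smaller part of the pair in the DSS library. Pnp shifted against Pnp2 by -0.84 (interval -0.94 to -0.74), and Slc28a2 against Gm14085 by 0.26, with 0 inside the interval (-0.16 to 0.68).

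**Figure D4:**
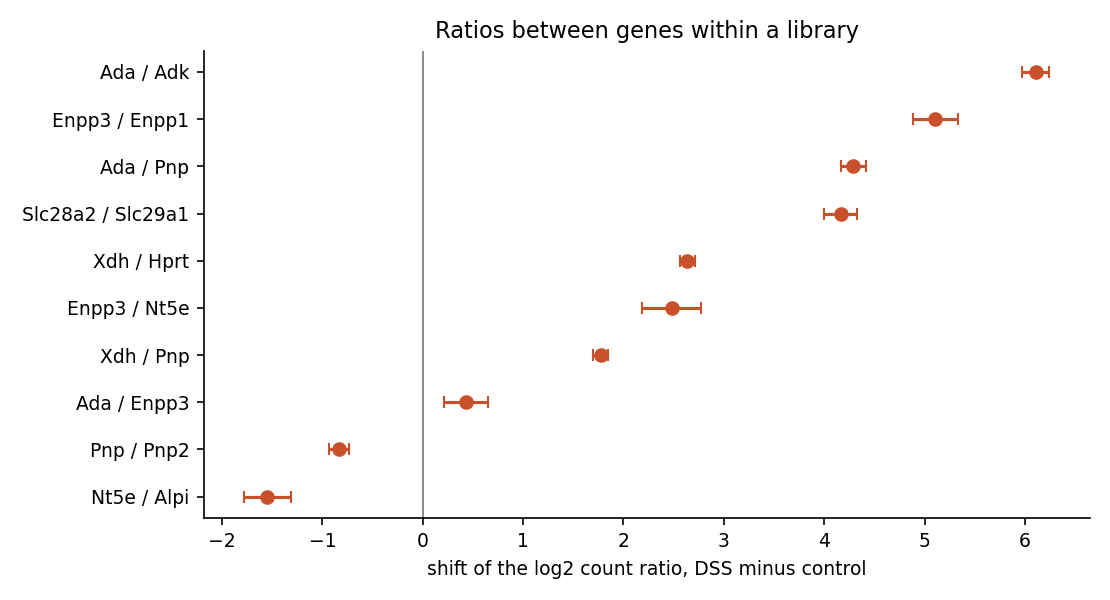
Shift of the log2 count ratio between 2 genes, DSS minus control, with 95% counting intervals. Each pair is read within a library, so the shift does not depend on scaling. Ada against Adk lies furthest to the right at 6.11, and Pnp against Pnp2 and Nt5e against Alpi lie left of 0.

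The label of the 6 genes places them at the villus tip, and markers of 3 zones of the villus were read beside them. All 13 tip markers were above 0 with TMM factors, all but Ceacam1 were with total counts, and 9 were at 1 or more, with a median of 2.87. Apoa1, an apolipoprotein of chylomicrons, was highest at 5.27 and the adhesion molecule Ceacam1 lowest at 0.10. Of 12 markers of the middle of the villus, 11 were at 1 or more, with a median of 2.57, and of 9 markers of its lower part, 4 were at 1 or more, against 2 at -1 or less, with a median of 0.72. The 6 genes, with a median of 2.59, ran from 1.02 to 5.30. They lay within the range of the tip markers, from 0.10 to 5.27, except for Ada at 5.30. The range of the enterocyte markers described below, from 0.04 to 5.27, held the same genes. Markers of the middle zone ran from 0.76 to 4.66 and those of the lower part from -2.30 to 4.29. Both ranges held the 6 genes except for Ada and Enpp3, at 4.87. Markers of the middle zone lay beside those of the tip, and the data do not place the 6 genes in a zone.

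Markers of other cell types differed as well. The enterocyte markers share Apoa1 and Apoa4 with the tip markers and Fabp1 and Fabp2 with those of the middle zone. They share Alpi with the group of extracellular nucleotide breakdown. The median of 22 enterocyte markers was 2.31, with 20 at 1 or more, and their levels summed to 5373 CPM in control mIOs and 33134 CPM in DSS mIOs. The median log2 ratio was 3.51 for 8 goblet cell markers and 2.32 for 8 enteroendocrine markers. Of the latter 7 were above 0, while Neurog3 was at -3.14 from 692 and 60 counts. It was -1.13 for 10 Paneth cell markers, -1.50 for 6 tuft cell markers and -2.91 for 10 stem cell markers. How far these cell types carry the values of the 6 genes was not tested.

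Ada and Enpp3 are also known from blood cells, Ada from T cells and Enpp3 from basophils and mast cells. None of the 8 T cell markers was among the genes analysed here. All analysed genes have counts in both libraries, so a marker with counts in only 1 library could also be missing. Of 9 macrophage and mast cell markers, 5 were analysed, with a median log2 ratio of 0.73 and 3 of them above 0. Csf1r was at 1.61 from 9 and 21 counts, Itgam at 1.14, Cd68 at 0.73, Lyz2 at -0.56 and Kit at -0.75. They summed to 53.4 CPM in control mIOs and 48.0 CPM in DSS mIOs, and the lower sum went with Kit, the most abundant of the 5, at 39.3 and 23.4 CPM. The mast cell markers Cpa3, Mcpt4 and Fcer1a were not among the genes analysed, with the same limit as for the T cell markers. Of 10 stromal and endothelial markers, 5 were analysed and 4 had 10 or more counts in either library, with a median log2 ratio of 0.22, which was -0.04 with total counts, and a summed level of 2.21 CPM in the control and 3.0 CPM under DSS.

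**Figure D5:**
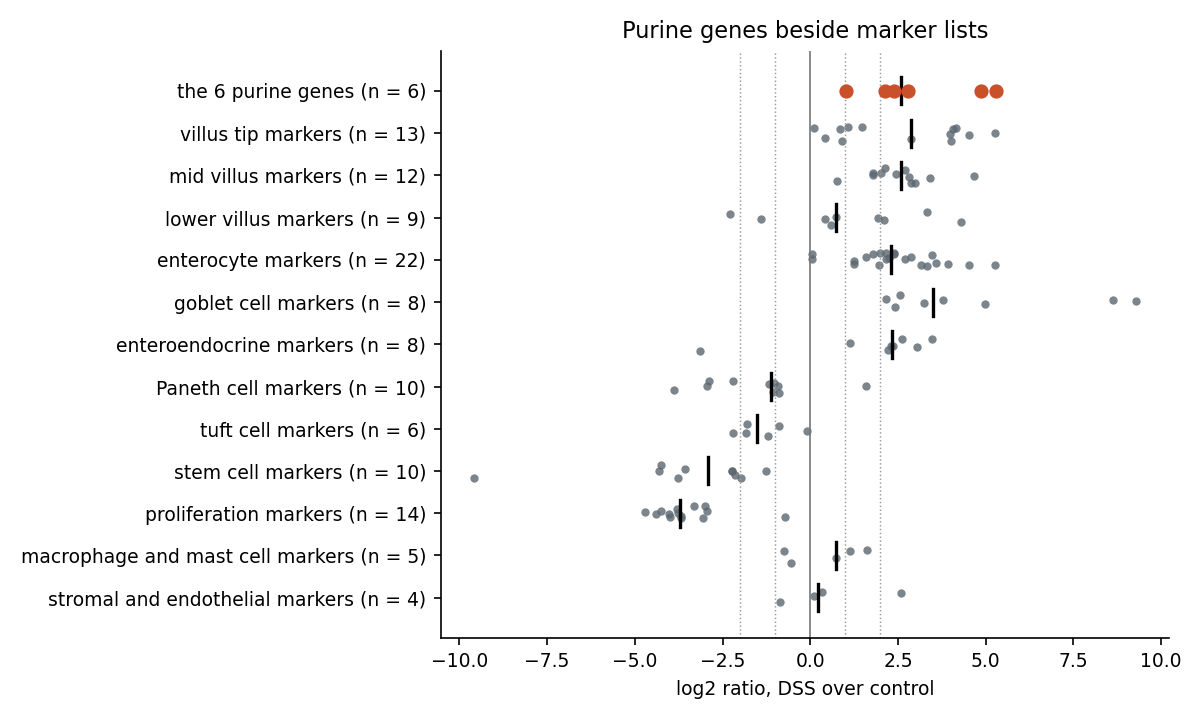
The log2 ratio, DSS over control, of the 6 purine genes (orange) and of marker genes of villus zones and cell types (grey), for genes with 10 or more counts in either library. Black bars are medians and n is the number of genes. The medians of the 6 genes and of tip, middle villus, enterocyte, goblet and enteroendocrine markers lie right of 2. That of lower villus markers lies at 0.72, and those of stem cell and proliferation markers lie left of -2.

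For each of the 6 genes, the nearest genes by level were sought among 13203 genes with 100 or more counts in either library, by the distance between their log2 CPM over the 2 libraries. Scin, an actin-severing protein, at a distance of 0.54 and Slc5a4b, of the sodium-glucose cotransporter family, at 0.76 were nearest to Ada, and the annexin Anxa10 at 0.35 and the carboxylesterase Ces2b at 0.36 to Enpp3. Rdh7, a retinol dehydrogenase, at 0.22 and Arg2, a mitochondrial arginase, at 0.26 were nearest to Xdh, Arhgap26 at 0.08 and Micalcl at 0.13 to Slc28a2, and Lmx1a at 0.06 and Gm35388 at 0.14 to Nt5e. Edf1 at 0.01 and Onecut2 at 0.05 were nearest to Pnp. Ada had the farthest nearest gene of the 6, and distances over 2 libraries are small wherever many genes share a level.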

How the data were processed

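The transcripts of 1 control culture and 1 DSS-treated culture of mIOs were sequenced as poly(A) RNA. The values the authors deposited are raw counts, not normalized. Although the name of each single-library file speaks of FPKM, its values equal these counts at all 19294 genes, and it was not used further. The submitters' processing notes name HISAT2 and StringTie, with no version. The counting step and the genome build were not given in the sources used here.

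TMM factors were computed with edgeR 4.0.16 (R 4.3.3). Each log2 ratio has a Clopper-Pearson 95% interval, and the shift of a ratio between genes has a Woolf interval, both for counting error only. As each condition is a single library, nothing was tested. No analysed gene was at 0 counts in a library. Lengths, and sequence windows shared between genes, were taken from GENCODE vM21 transcripts, matched by NCBI gene identifier, and promoters from RefSeq (GRCm38.p6).

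The 6 genes and all lists were chosen with earlier results of these data known. The named genes are the 6 genes, the 3 highest and 3 lowest of each purine list with at least 50 counts in a library, Pnp2, Slc28a2b, Adk, Hprt, Aprt, Alpi and Mocos, the highest and lowest of each marker list, and the 2 nearest genes of each of the 6. Not all marker genes under this rule are printed. Entpd5, Entpd8, Enpp1, Slc2a9, Abcg2, Abcc4, Impdh2, Adssl1, Adora1, Adora2b, P2rx1, P2ry4, P2rx7, the macrophage and mast cell markers and the markers that lists share were chosen after their values were seen. The computation of ratios and intervals was tested on simulated data. As alternatives, scaling used total counts, upper quartiles, the median of all genes or DESeq2 1.42.0. Further ones were thinning of the control library, a prior count of 2, other filters on low counts, lists averaged or without the 6 genes, median transcript lengths and 1 strand for motifs. The sum of a gene and its paralog was added after the data were seen. Python 3.11.15, numpy 2.4.6, scipy 1.17.1, pandas 2.3.3 and matplotlib 3.10.9 were used.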

Additional observations from a re-analysis of the deposited data

How the results depend on the processing

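No paired analysis was possible because each condition is 1 library, and no library could be left out for the same reason. The log2 ratios of the 6 genes stayed above 0 under all scalings, with a prior count of 2 and with thinning. With total counts, the setting that moved every gene by -0.26, the log2 ratio was 5.05 for Ada, 4.61 for Enpp3, 2.53 for Xdh, 2.13 for Nt5e, 1.88 for Slc28a2 and 0.76 for Pnp, and the median of the 6 was 2.33. Upper quartile factors gave 2.88 for Xdh and 1.11 for Pnp, and centring on the median of all genes gave 1.07 for Pnp. Pnp summed with Pnp2 was at 1.19, and the mean of the 6 genes in place of their median was 3.08. Median transcript lengths gave levels in the control and DSS library of 73.4 and 148 CPM per kb for Pnp, 12.3 and 85.1 for Xdh and 3.46 and 101 for Enpp3. Restricting the motif search to the strand of the gene left the TATA box in 0 of the 5 windows. The other 99 comparisons made for the 6 genes, the shares of all genes, levels and motifs stayed within their counting interval or, for counts of genes, within 1.5 times. For the other lists, 657 of 735 comparisons did so. The depth leaves wide intervals only for genes with few counts, such as Marc1, while the variation between cultures, which was not measured, limits every ratio.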
